A study of Mus musculus with 18 samples.

Results

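Binding of the C/EBP factors α and β and of PU.1, measured by ChIP-seq, was examined at 8 genes of the NF-κB system, out of 22367 protein-coding genes in the annotation. The genes were taken by name: the DNA-binding subunits *Rela*, *Rel*, *Relb*, *Nfkb1* and *Nfkb2*, the inhibitors *Nfkbia* and *Tnfaip3*, and *Nfkbiz*, which encodes an IκB protein. Each locus was the mm9 gene span of GENCODE vM1 plus 20 kb on either side, and the 8 loci together covered 543.1 kb. A site was placed in a locus by its position alone, so that several sites lay in or beside a neighbouring gene, which is named with them.

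NF-κB is a family of dimeric transcription factors that are held in the cytoplasm by IκB proteins and enter the nucleus when IκB kinase marks these inhibitors for degradation. RelA, c-Rel and RelB carry activation domains, whereas *Nfkb1* and *Nfkb2* encode the precursors of p50 and p52, which lack them. In B cells and macrophages the pathway drives survival, cytokine and inflammatory genes, and IκBα and A20, the products of *Nfkbia* and *Tnfaip3*, are classic feedback inhibitors. IκBζ, the product of *Nfkbiz*, is a nuclear IκB protein that modulates a subset of NF-κB targets. C/EBPα and C/EBPβ are leucine zipper factors of myeloid cells that share their DNA letters, and PU.1 is an ETS factor needed in both B cells and macrophages.

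All 18 ChIP-seq libraries came from C10 cells, which derive from the HAFTL mouse pre-B line and carry a C/EBPα-estrogen receptor fusion tagged with GFP, at every time point including 0 hr post-induction (hpi). β-estradiol (β-Est) brings the fusion into the nucleus, and with IL-3 and CSF-1 the cells turn into macrophage-like cells. C/EBPα was profiled at 0 hpi, at 10, 30 and 60 min, and at 3, 12, 24 and 48 hpi (8 libraries), and C/EBPβ and PU.1 were profiled at 0, 3, 12, 24 and 48 hpi (5 libraries each). The labels and the methods give different concentrations of β-Est, and for the samples of 0 hpi the labels do not say whether the cells had received the ethanol that served as solvent control. This is 1 cell line with 1 library per factor and time point and no control library, so the values are given without tests, and their 95% intervals (exact Poisson for reads, exact conditional binomial for ratios) cover counting error only. After filtering, the C/EBPα libraries held 5968544 to 24909437 reads, the C/EBPβ libraries 2901164 to 5843194 and the PU.1 libraries 6574957 to 11349498. The C/EBPα libraries of 10, 30 and 60 min came from another sequencer than all others, so that time and sequencer cannot be told apart there. A site bound in more cells and a site bound more often per cell cannot be told apart in bulk chromatin, and the cell type could not be checked from expression because ChIP-seq reads alone were analysed here.

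For each gene, the C/EBPα site with the highest reads in any of the 8 C/EBPα libraries was called the leading one. The 120 bases around these 8 sites are given because the time courses described below turn on them, together with a site in *Nfkbia* that was chosen after its values were seen, for its presence at all time points. Positions are in mm9 and letters run 5′ to 3′ on the plus strand. Distances count from the annotated gene start in the direction of transcription. Capitals mark matches on either strand to the C/EBP letters TTGCNNAA, the NF-κB letters GGGANNNNCC, the PU.1 core GAGGAA or the AP-1 letters TGANTCA.
Rela, +12.2 kb, chr19:5649645-5649764: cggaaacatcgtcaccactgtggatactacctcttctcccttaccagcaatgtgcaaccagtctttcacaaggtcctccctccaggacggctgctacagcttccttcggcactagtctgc
Rel, +3.0 kb, chr11:23667899-23668018: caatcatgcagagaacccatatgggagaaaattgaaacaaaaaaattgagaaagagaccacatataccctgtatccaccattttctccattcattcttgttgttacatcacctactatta
Relb, 1.8 kb upstream, chr7:20216481-20216600: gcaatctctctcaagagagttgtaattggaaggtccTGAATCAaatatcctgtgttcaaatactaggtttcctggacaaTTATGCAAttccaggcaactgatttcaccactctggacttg
Nfkb1, +83.7 kb, chr3:135270727-135270846: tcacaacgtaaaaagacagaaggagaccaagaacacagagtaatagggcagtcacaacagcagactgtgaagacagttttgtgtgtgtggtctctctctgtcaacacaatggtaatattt
Nfkb2, +23.8 kb, chr19:46402972-46403091: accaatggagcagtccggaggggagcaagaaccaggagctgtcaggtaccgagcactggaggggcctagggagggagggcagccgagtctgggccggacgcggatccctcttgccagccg
Nfkbia, +3.7 kb, chr12:56589860-56589979: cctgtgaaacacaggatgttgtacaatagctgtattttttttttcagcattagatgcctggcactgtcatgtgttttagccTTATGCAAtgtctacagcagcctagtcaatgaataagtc
Nfkbia, +0.7 kb, chr12:56592852-56592971: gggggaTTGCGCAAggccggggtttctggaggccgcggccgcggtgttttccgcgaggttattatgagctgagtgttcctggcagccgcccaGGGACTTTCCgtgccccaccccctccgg
Nfkbiz, +17.8 kb, chr16:55821107-55821226: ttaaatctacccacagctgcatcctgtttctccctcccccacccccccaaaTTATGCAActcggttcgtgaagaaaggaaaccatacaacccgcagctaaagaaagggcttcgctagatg
Tnfaip3, 18.2 kb upstream, chr10:18753602-18753721: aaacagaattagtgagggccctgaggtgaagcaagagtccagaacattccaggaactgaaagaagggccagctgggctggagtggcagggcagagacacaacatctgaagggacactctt

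The leading sites of *Relb*, *Nfkbia* and *Nfkbiz* held the same C/EBP match, TTATGCAA, and the *Relb* site also held the AP-1 match TGAATCA. The +0.7 kb site of *Nfkbia* held the C/EBP match TTGCGCAA and the NF-κB match GGGACTTTCC. No capitals stand in the windows of *Rela*, *Rel*, *Nfkb1*, *Nfkb2* and *Tnfaip3*, which says only that these exact letters were not there.

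A bound site was a 200-bp window with at least 7 to 15 reads, depending on the depth of the library, and a density of reads that exceeded its 10 kb surroundings at least 4-fold. Read values are scaled to 10000000 reads of the library and written as reads per 10M, and unless stated otherwise they count the reads within 100 bp of the centre of a site, in the order of the time points given above. Calls of a factor within 200 bp of each other in different libraries were taken as 1 site. The 8 loci held 50 C/EBPα sites, 26 C/EBPβ sites and 64 PU.1 sites. All 8 loci had a C/EBPα site (61.8% of all protein-coding loci did), 7 of 8 had a C/EBPβ site (44% of all) and all 8 had a PU.1 site (77.8% of all). Per 100 kb this made 9.21 C/EBPα, 4.79 C/EBPβ and 11.8 PU.1 sites, beside 2.22, 1.01 and 4.26 over all protein-coding loci. These are descriptions of named loci, and long loci hold more sites than short ones. In its fullest library a C/EBPα site held between 7.17 and 124 reads per 10M, with a median of 16.9 (16.8 over all C/EBPα sites of the genome). C/EBPβ sites held 17.1 to 102, with a median of 28.2 (25.6 over all), and PU.1 sites 9.33 to 236, with a median of 24.3 (18.7 over all).

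*Nfkbiz* had the most sites, with 12 of C/EBPα, 5 of C/EBPβ and 16 of PU.1, and 98.1% of all protein-coding loci held fewer C/EBPα sites. *Rela* had 9 C/EBPα, 4 C/EBPβ and 8 PU.1 sites in the short span of 50.6 kb, which gave it the same C/EBPα density as *Nfkbiz*, 17.8 per 100 kb. *Nfkb1*, the longest locus with 147 kb, had 9, 6 and 13 sites. *Tnfaip3* had 6, 4 and 7. *Nfkbia* had 4, 4 and 5, *Rel* had 4, 2 and 6, and *Relb* had 4, 1 and 5. *Nfkb2* was the poorest, with 2 C/EBPα sites, no C/EBPβ site and 4 PU.1 sites, and 55.4% of all loci held fewer C/EBPα sites.

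**Figure D1:**
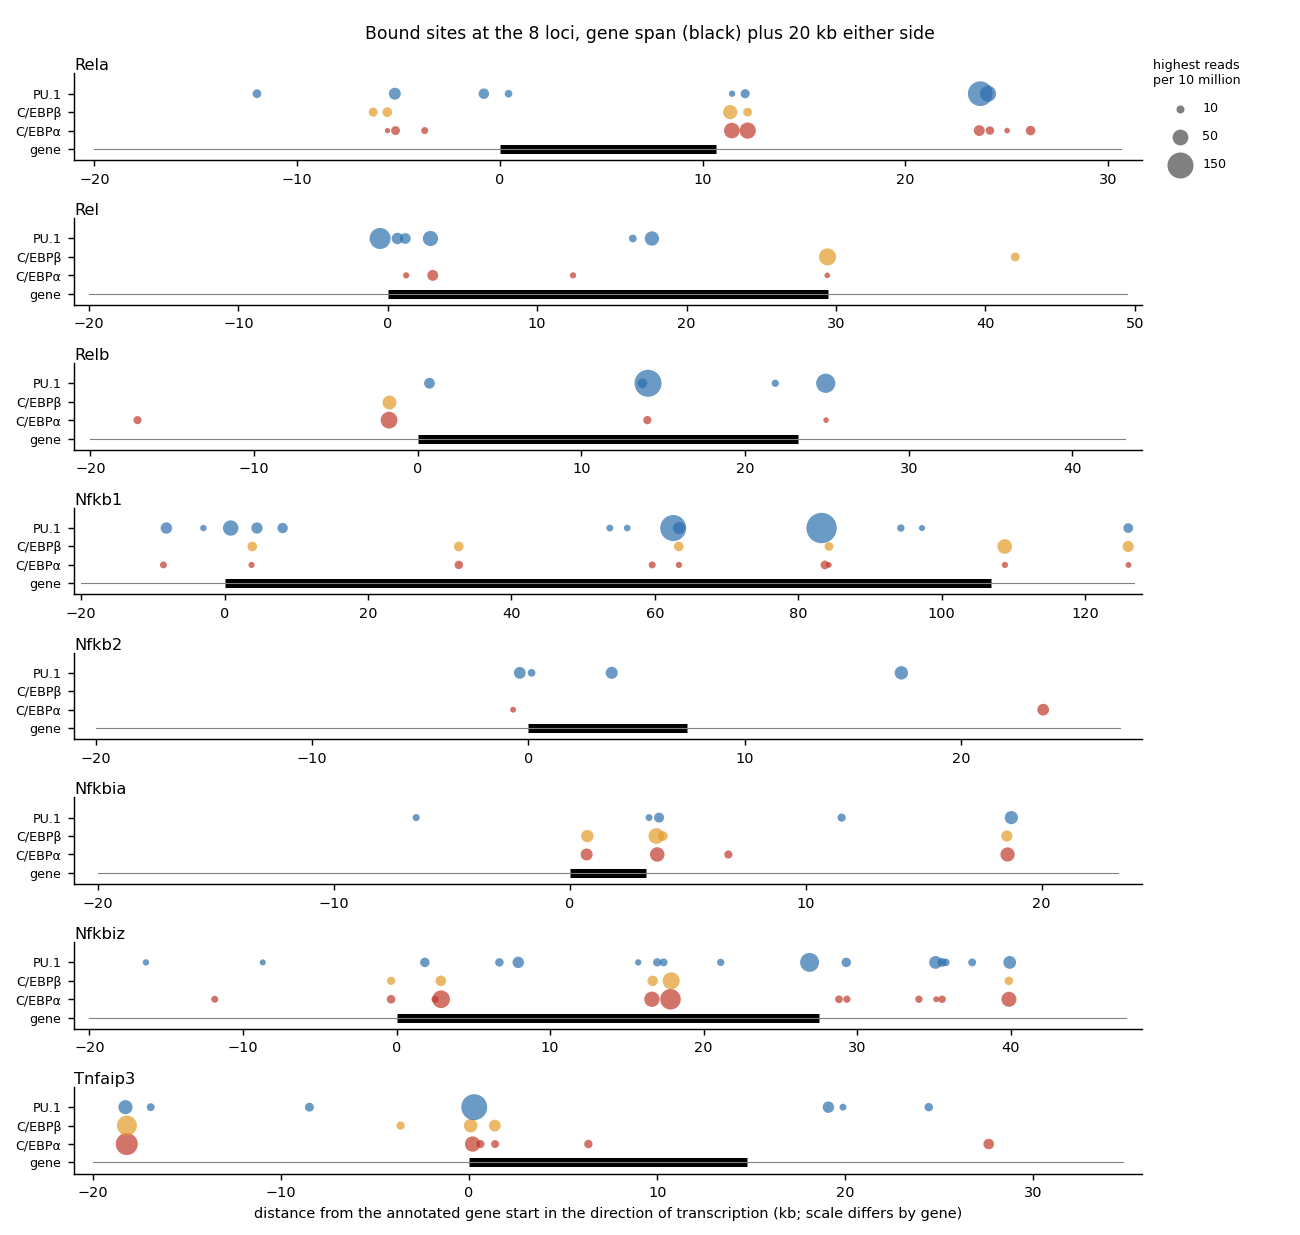
Positions of the bound sites of the 3 factors at the 8 loci, plotted as distance from the annotated gene start in kb, with the gene in black and the area of each point proportional to the highest reads per 10M within 100 bp. *Nfkbiz* holds 12 C/EBPα and 16 PU.1 sites, and *Nfkb2* holds 2 and 4.

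Before induction, 4 of the 8 loci had a C/EBPα call (14.1% of all loci), namely *Rela*, *Nfkbia*, *Nfkbiz* and *Tnfaip3*. At 48 hpi, 6 of 8 had a C/EBPα call (31.1% of all), and *Rel* and *Relb* had none. A C/EBPβ call at 48 hpi was found at 7 of 8 loci (41.2% of all), with *Nfkb2* as the exception. PU.1 was called at 0 hpi at 7 of 8 loci (62.4% of all) and at 48 hpi at all 8 (66.2% of all). *Nfkbia* was the locus without a PU.1 call at 0 hpi.

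The number of C/EBPα sites that passed the calling threshold was 5, 11, 22, 29, 32, 21, 16 and 13 of 50 in the order of the time points. The libraries of 10, 30 and 60 min and of 3 hpi were the deepest, and a deeper library calls weaker sites. Over all C/EBPα sites of the genome 7.02%, 24.3%, 41.7%, 59.2%, 56.2%, 31%, 24.6% and 21.5% were called, and the corresponding shares of the 50 sites, from 10% at 0 hpi over 64% at 3 hpi to 26% at 48 hpi, took a like course. The summed reads at the 50 sites, which do not use the threshold of each library, were 203, 241, 715, 759, 971, 973, 607 and 473 per 10M. The 95% intervals of 0 hpi and 10 min overlapped (174 to 235 and 222 to 261), which does not show that the sums were equal. Over all C/EBPα sites the mean per site was 3.87 and 5.22 at these times. The sums at the 50 sites had risen above both by 30 min (670.1 to 763) and were highest at 3 and 12 hpi (914 to 1030 and 896 to 1056). They lay lower at 48 hpi (426 to 523) but still above 0 hpi. By locus, the summed C/EBPα site reads were highest at 3 hpi at *Nfkbiz* (351, beside 44 at 0 hpi and 114 at 48 hpi), *Relb* (94.4, beside 10.2 and 11.3), *Nfkb1* (82.7, beside 35 and 40.2) and *Rel* (53, beside 7.89 and 17.6). They were highest at 12 hpi at *Tnfaip3* (225, beside 36.1 and 109), *Rela* (204, beside 31.6 and 83), *Nfkbia* (131, beside 27.1 and 83) and *Nfkb2* (40.2, beside 11.3 and 13.8). The *Rela* sum includes sites in the neighbouring *Sipa1* at +23.6, +24.2, +25.0 and +26.2 kb. These held 30.2, 18.4, 1.68 and 23.5 reads at 12 hpi, and 4.49, 2.7, 1.8 and 5.39 at 3 hpi. At 30 min they held 3.08, 1.54, 6.15 and 1.54, when the *Rela* sum was 148. The maximum of the *Rela* sum at 12 hpi thus depended on the *Sipa1* sites. Of the *Nfkb2* sum at 12 hpi, 35.2 came from a site in the neighbouring *Fbxl15*. A single site of 50 had its highest reads at 48 hpi (6.31% of all C/EBPα sites), whereas 18 had them at 3 hpi (29.2% of all) and 11 at 12 hpi (16.9% of all). The mean per site was level between 3 and 12 hpi for the 50 sites (19.4 and 19.5), whereas over all C/EBPα sites it was 17.8 at 3 hpi and 14.1 at 12 hpi. This level mean was not shared by all 8 loci. The sums of *Nfkbiz*, *Relb*, *Nfkb1* and *Rel* were lower at 12 hpi (258, 51.9, 48.6 and 15.1). Higher at 12 than at 3 hpi were the *Tnfaip3* site 18.2 kb upstream (124 and 50.3), the *Fbxl15* site (35.2 and 3.6) and most of the *Sipa1* sites.

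The 48 hpi to 0 hpi ratio of the summed C/EBPα reads was 1.22 on the log2 scale (0.96 to 1.48), beside 1.18 for all 39991 C/EBPα sites of the genome. Sites were called over all libraries of a factor, a choice that favours sites that were high at some point of the course. At 10 of 50 single sites the interval of this ratio lay above 0 on the log2 scale (18.2% of all C/EBPα sites). C/EBPα was called at 0 hpi at 5 of 50 sites (7.02% of all), at 48 hpi at 13 (21.5%) and in 1 library alone at 19 (40.6%). At 4 of the 50 sites it was called at all 8 time points (2.32% of all). These were the +11.4 kb site of *Rela*, the +0.7 kb site of *Nfkbia*, and the +16.6 and +17.8 kb sites of *Nfkbiz*. The fifth site called at 0 hpi, at +27.6 kb of *Tnfaip3*, beyond the end of the gene, was called up to 3 hpi and not later.

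C/EBPβ reads at these loci were highest at the end of the course. The summed reads at its 26 sites were 114, 306, 331, 554 and 855 per 10M at 0, 3, 12, 24 and 48 hpi, and 1, 6, 5, 11 and 22 sites passed the threshold (6%, 34.5%, 18.5%, 37.4% and 82.4% of all C/EBPβ sites). The 22 sites called at 48 hpi were 84.6% of the 26. The log2 ratio of 48 hpi to 0 hpi was 2.90 (2.47 to 3.36), beside 2.65 for all 18198 sites, and its interval lay above 0 at 19 of 26 single sites (62.5% of all). Of the 26 sites, 11 were first called at 48 hpi, so the choice of sites favours a high ratio. All C/EBPβ sites of the genome were chosen by the same rule.

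PU.1, present in pre-B cells, differed little in sum between 0 and 48 hpi. Its 64 sites together held 1618, 1866, 2185, 1509 and 1519 reads per 10M, with 30, 35, 52, 44 and 39 sites called (41.6%, 46.1%, 77.4%, 59% and 54.7% of all PU.1 sites). The intervals of 0 hpi (1526 to 1715) and 48 hpi (1446 to 1596) overlapped, and the log2 ratio was -0.09 (-0.20 to 0.02), beside 0.05 for all 75996 PU.1 sites. With the PU.1 libraries thinned to equal depth the ratio was -0.15, and its interval (-0.28 to -0.02) lay below 0. At 12 hpi the sum was higher (2098 to 2276) than at 3 hpi (1763 to 1974), and 32 of 64 sites had their highest reads there (40% of all PU.1 sites). The mean over all PU.1 sites was highest at 12 hpi as well, with 23.7 reads per site beside 34.1 for the 64. PU.1 was called at 0 hpi at 30 of 64 sites (41.6% of all) and at all 5 time points at 21 (24.5% of all). Single sites went both ways, with the ratio interval above 0 at 11 of 64 (17.3% of all) and below 0 at 8 (13.4% of all). By locus, the summed PU.1 site reads at 0 and 48 hpi, which do not use the threshold, were 15.6 and 58.3 at *Nfkbia*, 142 and 296 at *Nfkbiz*, and 204 and 213 at *Tnfaip3*. They were 252 and 92.7 at *Relb*, 224 and 138 at *Rela*, 229.7 and 168 at *Rel*, 494 and 493 at *Nfkb1*, and 56.7 and 60.2 at *Nfkb2*. The *Rela* sum includes sites in the neighbouring *Sipa1*, among them the highest PU.1 site of the locus, and the *Nfkb2* sum includes a site in *Psd*. The PU.1 library of 48 hpi was the deeper of the pair, so the counts of called sites are not compared between them.

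**Figure D2:**
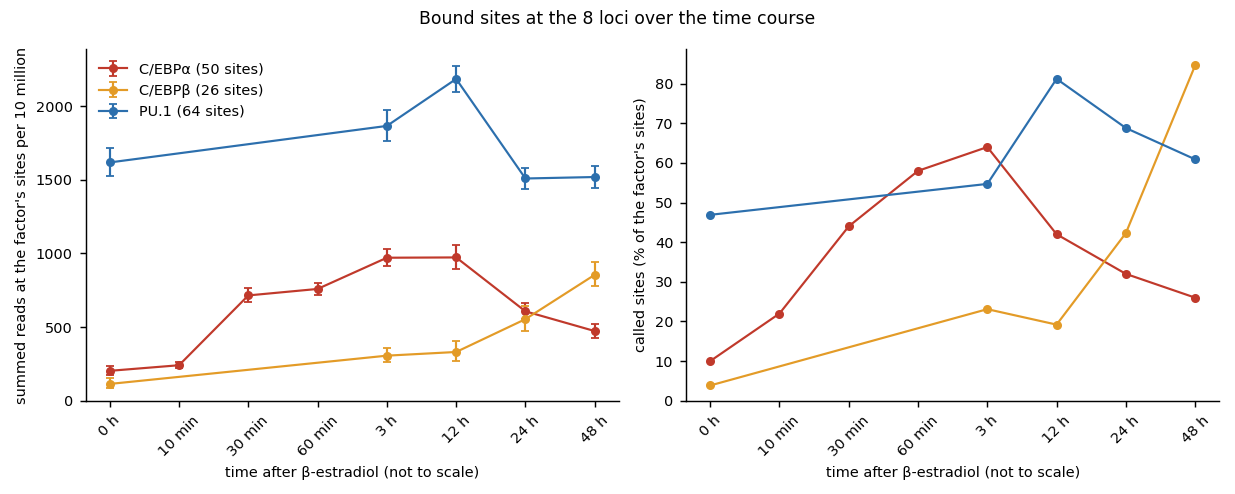
Summed reads per 10M at the 50 C/EBPα, 26 C/EBPβ and 64 PU.1 sites (left, bars show the exact Poisson 95% interval) and the percent of these sites that were called (right) against time after β-Est, not to scale. C/EBPα peaks at 3 and 12 hpi, C/EBPβ is highest at 48 hpi (855), and PU.1 is highest at 12 hpi (2185).

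In 200-bp bins across the loci the median bin held between 0 and 1.71 reads per 10M in the C/EBPα and C/EBPβ libraries. The fullest C/EBPα bin was that of the *Nfkbia* +0.7 kb site at 0 hpi (16.9), that of the *Nfkbiz* +17.8 kb site from 10 min to 3 hpi (45.4 to 108) and that of the *Tnfaip3* site 18.2 kb upstream from 12 to 48 hpi (112, 80.4 and 66.6). The fullest C/EBPβ bin was likewise in *Nfkbiz* at 0 and 3 hpi (21 and 35.9) and at *Tnfaip3* from 12 hpi on (44.8, 67.2 and 94.6).

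*Rela* (chr19:5637483-5648130, plus strand) encodes the p65 subunit, the main activating partner of p50. Its leading C/EBPα site lay at +12.2 kb, in intergenic sequence beyond the end of the gene. It held 3.38, 12.8, 67.7, 57.8, 42.2, 48.6, 29.0 and 23.9 C/EBPα reads per 10M. It was thus highest at 30 min (54.3 to 83.4), which overlapped with 60 min, 3 hpi (31 to 56.2) and 12 hpi (32.5 to 69.8). At 48 hpi it was still above 0 hpi, with a log2 ratio of 2.82 (1.06 to 5.22) that rested on 3 reads at 0 hpi. PU.1 was called within 200 bp at all 5 time points, and its reads around the C/EBPα centre were 11.3, 18.3, 14.0, 17.6 and 13.4. C/EBPβ had 4.67 reads before induction and 19.7 at 48 hpi, on 2 and 10 reads, with a ratio interval across 0 (log2 2.08, -0.15 to 5.31).

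A C/EBPα site at +11.4 kb, just upstream of it, was already called at 0 hpi, with 7.89, 16.9, 57.7, 62.4, 56.6, 51.9, 17.1 and 23.9 reads. The leading C/EBPβ site of the locus, 83 bp from this centre, had 11.7, 8.56, 20.7, 41.6 and 51.2 C/EBPβ reads and held the C/EBP match TTGCACAA. A group of 4 further C/EBPα sites lay at +23.6 to +26.2 kb in *Sipa1*, a GTPase-activating protein gene, where C/EBPα did not exceed 30.2 reads. The PU.1 site with the highest reads of the locus, called its leading PU.1 site, lay there at +23.7 kb, in an intron of *Sipa1*. Its PU.1 reads were 118, 103, 157, 91.6 and 52.6, which made a log2 ratio of -1.16 between 48 and 0 hpi (-1.68 to -0.65). Nearest to a start of *Rela*, at +0.4 kb in an intron, lay a weak PU.1 site that was called at 12 hpi alone, with 1.42, 3.04, 14.9, 4.41 and 1.91 reads. A PU.1 site 0.8 kb upstream of the gene was called at all 5 time points. It held 12.8, 21.3, 28, 11.5 and 22.9 PU.1 reads, with a ratio interval across 0 (log2 0.85, -0.31 to 2.14).

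*Rel* (chr11:23641514-23670970, minus strand) encodes c-Rel, which is characteristic of lymphoid and myeloid cells. Its leading C/EBPα site lay in an intron at +3.0 kb and was transient, with 2.26, 1.61, 21.5, 26.1, 30.6, 6.7, 1.32 and 3.77 reads. It was called at 30 min, 60 min and 3 hpi, and the interval at 3 hpi (21.2 to 42.7) did not overlap with that at 12 hpi (1.83 to 17.2). The log2 ratio of 48 hpi to 0 hpi was 0.74 (-2.38 to 4.32), on 3 and 2 reads. PU.1 was called within 200 bp at 0, 3, 12 and 48 hpi. Its reads around this centre were 14.2, 31.9, 20.5, 8.81 and 15.3.

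At *Rel*, the leading PU.1 site, 0.5 kb upstream of the gene start and also the nearest to it, held 52.5, 73.0, 113, 68.7 and 67.8 PU.1 reads, with 12 hpi (93.7 to 135) above that at 0 hpi (36.9 to 72.3). The ratio of 48 hpi to 0 hpi had an interval across 0 (log2 0.37, -0.22 to 0.99). C/EBPα did not exceed 10.1 reads there. The 3′ end of *Rel* carried a site of C/EBPβ, at +29.4 kb in the UTR, with 4.67, 10.3, 10.3, 32 and 74.9 C/EBPβ reads. C/EBPα reads at that centre stayed between 1.2 and 7.91, and the letters TTACGCAA, a C/EBP match, stood in its window. A PU.1 site at +17.7 kb, over coding sequence, went the other way, with 52.5, 47.1, 34.5, 12.3 and 20.1 PU.1 reads and a log2 ratio of -1.39 (-2.23 to -0.58).

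*Relb* (chr7:20191566-20214787, minus strand) encodes the partner of p52 in the non-canonical pathway. Its leading C/EBPα site, 1.8 kb upstream of the gene start in intergenic sequence, had 2.26, 1.2, 9.23, 18.9, 71.9, 16.8, 11.9 and 1.26 reads. The value at 3 hpi (57 to 89.5) stood apart from all other time points, the next being 60 min (13.3 to 26.1), and at 48 hpi 1 read was left. C/EBPβ was highest at 3 hpi as well, with 2.34, 49.6, 10.3, 19.2 and 21.7 reads. It still exceeded 0 hpi at 48 hpi (log2 ratio 3.21, 0.43 to 8.64), on 11 reads against 1. PU.1 was not called within 200 bp and did not exceed 1.91 reads.

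PU.1 at *Relb* was highest at +14.1 kb, in an intron, where it held 184, 187, 97.1, 58.2 and 36.3 reads. The intervals of 0 hpi (154 to 219) and 3 hpi overlapped, and each later value was lower than that at 3 hpi, with a log2 ratio of -2.34 between 48 and 0 hpi (-2.91 to -1.81). Among the 8 leading PU.1 sites this was the lowest ratio. C/EBPα was called 41 bp away at 30 min, 60 min and 12 hpi, with at most 17.4 reads. The PU.1 site nearest to a *Relb* start, at +0.7 kb over an exon, was called at all 5 time points with 14.2, 22.8, 29.9, 17.6 and 12.4 reads. A further PU.1 site at +24.9 kb, 45 bp from the start of *Clasrp*, held 35.5, 42.6, 94.3, 52.9 and 35.4 reads.

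**Figure D3:**
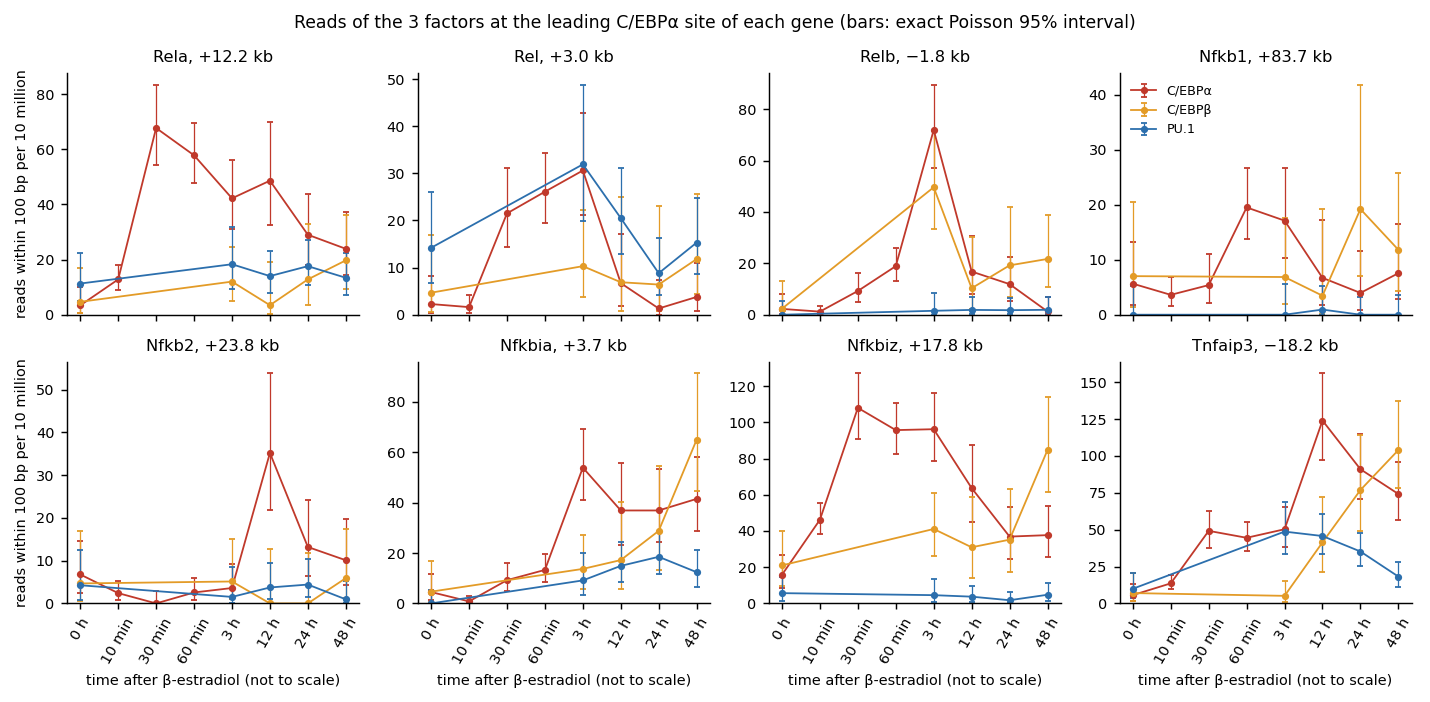
Reads per 10M within 100 bp of the leading C/EBPα site of each gene for C/EBPα (red), C/EBPβ (orange) and PU.1 (blue), against time after β-Est, not to scale, with exact Poisson 95% intervals as bars. C/EBPα at *Relb* peaks at 3 hpi (71.9) and is at 1.26 at 48 hpi, whereas at *Tnfaip3* it peaks at 12 hpi (124) and is at 74.2 at 48 hpi.

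*Nfkb1* (chr3:135247619-135354511, minus strand) encodes p105, the precursor of p50. Its 9 C/EBPα sites were weak, and the leading one, in an intron at +83.7 kb and 447 bp from an internal transcript start, had 5.64, 3.61, 5.38, 19.5, 17.1, 6.7, 3.96 and 7.54 reads. It was called at 60 min and 3 hpi, and the interval at 60 min (13.8 to 26.7) lay just above that at 0 hpi (1.83 to 13.2). No PU.1 read lay within 100 bp at 0 hpi, for which the interval reaches 5.23 per 10M.

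PU.1 binding at *Nfkb1* was strong. Its leading PU.1 site, at +83.3 kb over coding sequence and 14 bp from the same internal transcript start, was also the highest of all 64 and held 163, 236, 221, 163 and 195 PU.1 reads. Its log2 ratio of 48 hpi to 0 hpi was 0.26 (-0.08 to 0.60). A second PU.1 site in an intron at +62.6 kb held 173, 139.9, 92.4, 90.8 and 115 reads and was lower at 48 hpi than at 0 hpi (log2 ratio -0.59, -0.97 to -0.22). C/EBPβ was highest at +108.8 kb, past the end of the gene, with 2.34, 5.13, 13.8, 32 and 55.2 reads, and C/EBPα did not exceed 10.8 at this centre. An intronic site at +32.7 kb with the C/EBP match TTGCATAA had 2.26, 2.41, 11.5, 18.4, 17.1, 5.03, 0 and 0 C/EBPα reads, whereas C/EBPβ stood at 23.7 there at 48 hpi and 2.34 at 0 hpi (log2 ratio 3.34, 0.58 to 8.76).

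*Nfkb2* (chr19:46379227-46386580, plus strand) encodes p100, the precursor of p52. The leading C/EBPα site of the locus was at +23.8 kb, in an intron of the neighbouring *Fbxl15* and 358 bp from the start of that gene. It held 6.77, 2.41, 0, 2.56, 3.6, 35.2, 13.2 and 10.1 C/EBPα reads. The peak at 12 hpi (21.8 to 53.8) did not overlap with 0 hpi or 48 hpi (4.34 to 19.8), and the log2 ratio of 48 to 0 hpi was 0.57 (-1.14 to 2.38). Within the gene and its near flanks PU.1 alone was called more than once. The site 0.4 kb upstream held 19.9, 27.4, 35.5, 30.0 and 19.1 PU.1 reads. An intronic site at +3.9 kb, called at 3, 12 and 24 hpi, held 8.51, 12.2, 37.3, 18.5 and 0. The site nearest to the start, at +0.2 kb in an intron, was called for PU.1 at 3 hpi with 15.2 reads. In an intron of *Psd* at +17.2 kb, the leading PU.1 site of the locus held 25.5, 24.3, 45.7, 22.9 and 37.3.

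*Nfkbia* (chr12:56590398-56593634, minus strand) encodes IκBα, the inhibitor that NF-κB itself induces. Its leading C/EBPα site lay at +3.7 kb, just past the end of this short gene, and was low up to 60 min and high from 3 hpi on. It held 4.51, 0.803, 9.23, 13.3, 53.9, 36.9, 36.9 and 41.5 C/EBPα reads. The interval at 3 hpi (41.2 to 69.4) did not overlap with that at 60 min (8.69 to 19.5), the 4 values from 3 hpi on had overlapping intervals, and the log2 ratio of 48 to 0 hpi was 3.20 (1.71 to 5.16). C/EBPβ at the same centre was 4.67, 13.7, 17.2, 28.8 and 65.0, a log2 ratio of 3.8 (1.83 to 6.90). PU.1, with no read at 0 hpi (interval up to 5.23), had 9.13, 14.9, 18.5 and 12.4 reads at 3, 12, 24 and 48 hpi and was called within 200 bp at each of these.

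Within *Nfkbia*, the +0.7 kb intronic site, the nearest to its start, was bound by C/EBPα throughout, with 15.8, 9.23, 21.5, 36.9, 23.4, 30.2, 19.8 and 21.4 reads and a log2 ratio of 0.44 (-0.67 to 1.57). C/EBPβ, centred 28 bp away, was called there at 48 hpi alone, with 7.01, 13.7, 17.2, 9.61 and 39.4 reads. PU.1 did not exceed 3.73. Further downstream, at +18.6 kb in intergenic sequence, C/EBPα reads were 3.38, 0.401, 3.08, 4.09, 25.2, 51.9, 27.7 and 13.8, highest at 12 hpi, and this window held the AP-1 match TGACTCA. Beside it, at +18.7 kb, lay the leading PU.1 site, with 1.42, 10.6, 44.8, 30.0 and 14.3 PU.1 reads (log2 ratio 3.34, 0.64 to 8.73, on 15 reads against 1). At all 5 PU.1 sites of the locus the reads at 0 hpi were between 1.42 and 7.09 per 10M.

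*Nfkbiz* (chr16:55811488-55839012, minus strand) encodes IκBζ. The leading C/EBPα site lay in an intron at +17.8 kb, 1084 bp from an internal transcript start, and was called at all 8 time points. It held 15.8, 46.2, 108, 95.7, 96.2, 63.7, 36.9 and 37.7 C/EBPα reads. Reads were already higher at 10 min (38.1 to 55.4) than at 0 hpi (8.63 to 26.5), the 3 values from 30 min to 3 hpi had overlapping intervals, and 48 hpi was above 0 hpi (log2 ratio 1.26, 0.30 to 2.29). C/EBPβ was called within 200 bp at all 5 of its time points, with 21, 41.1, 31.0, 35.2 and 84.7 reads at this centre. PU.1 was not called within 200 bp and had between 1.76 and 5.67 reads.

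Other strong C/EBPα sites of *Nfkbiz* differed in timing. The +2.9 kb intronic site had 1.13, 13.6, 47.7, 51.7, 80.0, 50.3, 26.4 and 16.3 reads, highest at 3 hpi. The +16.6 kb site, 125 bp from the internal start, had 11.3, 15.7, 60.0, 41.5, 28.8, 46.9, 39.6 and 26.4, and a C/EBPβ site 48 bp from it was the nearest of all sites to an annotated start of the gene. The intergenic +39.9 kb site reached 57.5 at 3 hpi and was at 6.29 at 48 hpi, with PU.1 called there at all 5 time points. At 0.4 kb upstream of the gene, C/EBPα (18.9) and C/EBPβ (17.1) were called at 3 hpi alone.

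The leading PU.1 site of *Nfkbiz* lay at +26.9 kb in the UTR, near the 3′ end, with 51.1, 65.4, 70.0, 59.9 and 91.7 PU.1 reads, and the interval of its ratio lay above 0 (log2 0.85, 0.28 to 1.44). An intronic PU.1 site at +1.8 kb, with the match ACTTCCTC (GAGGAAGT on the other strand), went from 2.84 reads at 0 hpi to 22.9 at 48 hpi (log2 ratio 3.02, 1.01 to 6.14).

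*Tnfaip3* (chr10:18720716-18735463, minus strand) encodes A20, a ubiquitin-editing enzyme that shuts off NF-κB signalling. Its leading C/EBPα site, 18.2 kb upstream in intergenic sequence, was the highest of the 50. It held 5.64, 13.6, 49.2, 44.5, 50.3, 124, 91.0 and 74.2 C/EBPα reads. Reads were level from 30 min to 3 hpi, the value at 12 hpi (97.4 to 156) lay above that at 3 hpi (38.0 to 65.4), and 48 hpi remained above 0 hpi with a log2 ratio of 3.72 (2.41 to 5.39), which was 5.58 (3.04 to 10.92) with the libraries thinned to the smallest. C/EBPβ at this centre was 7.01, 5.13, 41.4, 76.9 and 104, and was thus higher from 12 hpi on, with a log2 ratio of 3.90 (2.27 to 6.22). PU.1 was 9.93, 48.7, 45.7, 35.2 and 18.2, and was called within 200 bp at every time point but 0 hpi.

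At the start of *Tnfaip3*, PU.1 was bound before induction. The leading PU.1 site, at +0.3 kb in the UTR and 8 bp from an annotated start, held 153, 126, 172, 117 and 119 reads, and the ratio of 48 to 0 hpi had an interval across 0 (log2 -0.36, -0.74 to 0.03), whereas with reads within 200 bp it lay below 0 (-0.42, -0.75 to -0.09). Its window held the NF-κB match GGCAGTTCCC. C/EBPα was centred 87 bp from it, at +0.2 kb, with 6.77, 4.42, 28.5, 20.5, 25.2, 60.3, 39.6 and 20.1 reads, and C/EBPβ at +0.1 kb with 7.01, 8.56, 20.7, 41.6 and 47.3. At +19.1 kb, past the end of the gene, PU.1 went from 4.25 to 33.4 reads (log2 ratio 2.97, 1.31 to 5.32). By contrast, the C/EBPα site at +27.6 kb had 13.5, 12.4, 27.7, 28.7 and 13.5 reads up to 3 hpi, and 0, 3.96 and 3.77 thereafter.

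**Figure D4:**
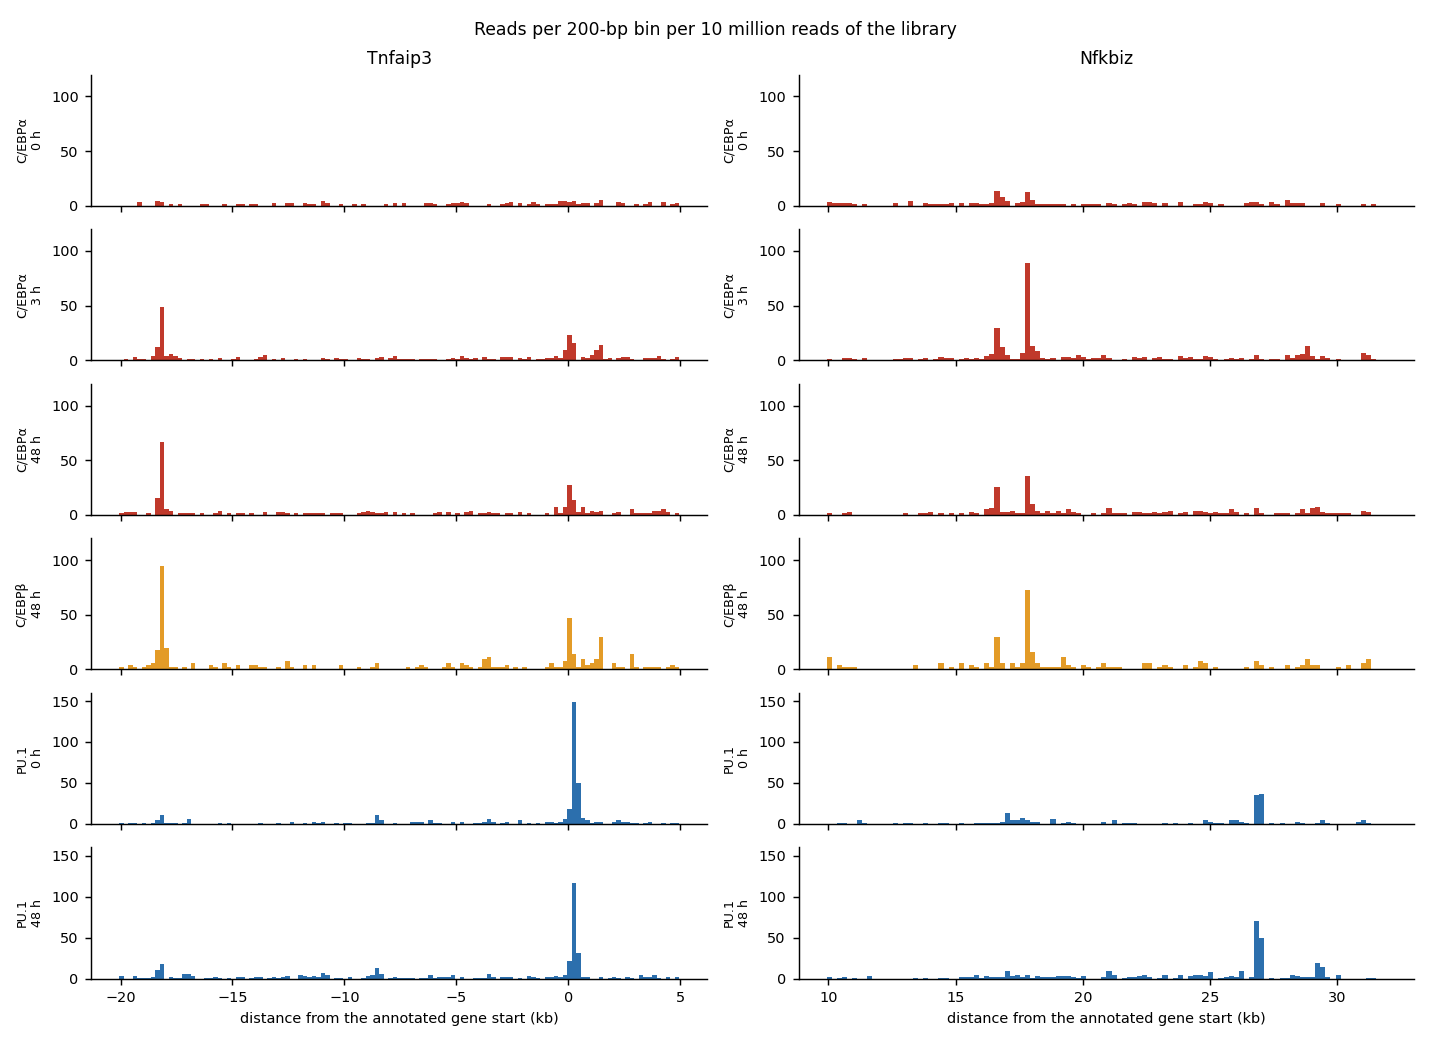
Reads per 200-bp bin, per 10M reads of the library, against distance from the annotated gene start in kb at *Tnfaip3* (left) and *Nfkbiz* (right), for C/EBPα at 0, 3 and 48 hpi, C/EBPβ at 48 hpi, and PU.1 at 0 and 48 hpi. C/EBPα and C/EBPβ share the bins 18.2 kb upstream of *Tnfaip3* and at +17.8 kb of *Nfkbiz*, whereas the highest PU.1 bins lie at +0.3 kb and +26.9 kb.

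Ordered by C/EBPα reads at 48 hpi, the leading sites ran from *Tnfaip3* (74.2, interval 56.5 to 95.7) through *Nfkbia* (41.5, 28.6 to 58.3), *Nfkbiz* (37.7, 25.4 to 53.8), *Rela* (23.9, 14.4 to 37.3), *Nfkb2* (10.1, 4.34 to 19.8), *Nfkb1* (7.54, 2.77 to 16.4) and *Rel* (3.77, 0.778 to 11) to *Relb* (1.26, 0.0318 to 7). Every pair of neighbours in this order had overlapping intervals. *Tnfaip3*, *Nfkbia* and *Nfkbiz* were above *Nfkb2*, *Nfkb1*, *Rel* and *Relb* without overlap, and of the subunit genes *Rela* alone overlapped with *Nfkbia* and *Nfkbiz*. The place of *Nfkbia* depends on the choice of its leading site, since the +18.6 kb site, with 51.9 reads at its peak against 53.9, held 13.8 at 48 hpi (6.9 to 24.7), which overlapped with *Nfkb2*. That of *Nfkb1* depends on this choice too. Its +59.6 kb site, called at 48 hpi alone, held 12.6 C/EBPα reads then (6.03 to 23.1), above the 10.1 of *Nfkb2* but with overlap. The time of the highest value differed, with 30 min for *Rela* and *Nfkbiz*, 60 min for *Nfkb1*, 3 hpi for *Rel*, *Relb* and *Nfkbia*, and 12 hpi for *Nfkb2* and *Tnfaip3*. At *Relb* alone the interval of the maximum did not overlap with that of any other time point. At the other 7 genes it overlapped with that of at least 1 neighbouring time point (at *Rel*, 21.2 to 42.7 at 3 hpi and 19.4 to 34.3 at 60 min, and at *Nfkb1*, 13.8 to 26.7 at 60 min and 10.3 to 26.7 at 3 hpi). The overlap was narrow at *Nfkb2* (21.8 to 53.8 at 12 hpi and 6.32 to 24.2 at 24 hpi). Overlapping intervals do not show that 2 values were equal. At 4 of the 8 (*Rela*, *Nfkbia*, *Nfkbiz* and *Tnfaip3*) the interval of the log2 ratio of 48 to 0 hpi lay above 0 (18.2% of all C/EBPα sites), and the choice of the highest site per locus favours this outcome. At *Relb* the ratio was -0.84 with an interval from -6.73 to 3.42, on 1 and 2 reads, and its direction was not stable, with 0.16 for reads within 200 bp and 0.00 in thinned libraries.

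For C/EBPβ, the highest site of each locus reached its highest value at 48 hpi at 6 of the 7 loci that had one: *Tnfaip3* (102), *Rel* and *Nfkbiz* (74.9 each), *Nfkbia* (63.1), *Nfkb1* (55.2) and *Rela* (51.2). Of all 26 C/EBPβ sites, 17 had their highest reads at 48 hpi (68.7% of all C/EBPβ sites), a time that the choice of sites favours. The exception among the loci was *Relb*, with 49.6 at 3 hpi and 21.7 at 48 hpi. At all 7 it lay within 200 bp of a C/EBPα site, as did 23 of the 26 C/EBPβ sites (77% of all C/EBPβ sites). At *Nfkb1* and *Rel* this was a weak one, called in 1 C/EBPα library (3 hpi and 60 min, respectively), whereas at the other 5 it had at least 53.9 reads at its peak.

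The leading PU.1 sites differed in their ratio of 48 to 0 hpi. *Relb* and *Rela* (at its site in *Sipa1*) were lower, *Nfkbia* and *Nfkbiz* were higher, and the intervals of *Nfkb1*, *Nfkb2* (log2 0.55, -0.29 to 1.44), *Rel* and *Tnfaip3* crossed 0. At 48 hpi the levels were 195 at *Nfkb1*, 119 at *Tnfaip3*, 91.7 at *Nfkbiz*, 67.8 at *Rel*, 52.6 at *Rela*, 37.3 at *Nfkb2*, 36.3 at *Relb* and 14.3 at *Nfkbia*. *Nfkb1* was above *Tnfaip3* without overlap (169 to 224 and 99.4 to 142) and *Nfkbia* (8.02 to 23.6) was below *Relb* (25.7 to 49.8). The other neighbours overlapped.

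**Figure D5:**
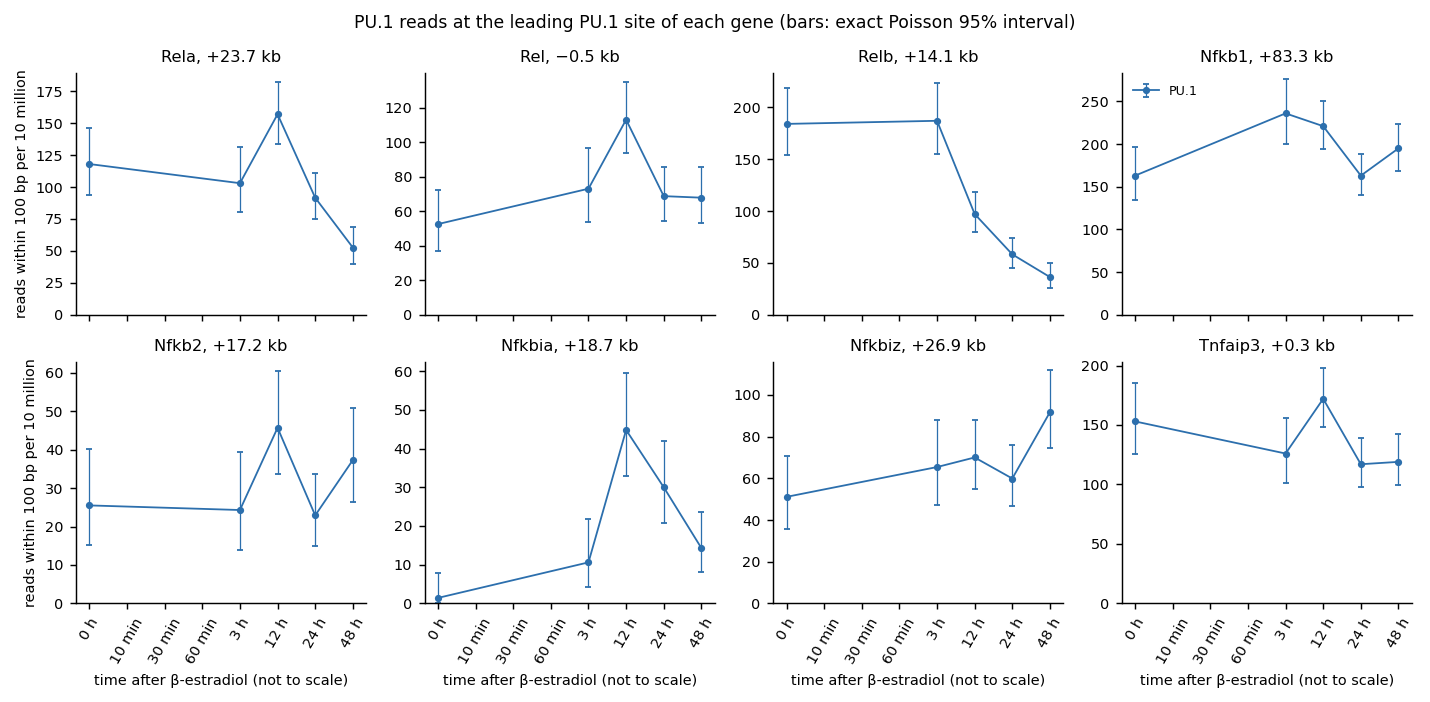
PU.1 reads per 10M within 100 bp of the leading PU.1 site of each gene against time after β-Est, not to scale, with exact Poisson 95% intervals as bars. At *Relb* the values go from 184 to 36.3, at *Nfkbia* from 1.42 over 44.8 at 12 hpi to 14.3, and at *Nfkb1* they stay between 163 and 236.

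PU.1 had been called within 200 bp of 12 of the 50 C/EBPα sites at 0 hpi (19.9% of all C/EBPα sites) and of 19 at any time point (39% of all). Within 1 kb, PU.1 had been called at 0 hpi at 23 of the 50 (31.9% of all). C/EBPβ was called within 200 bp of 22 of the 50 at any time point (35.1% of all). Of the leading C/EBPα sites, those of *Rel* and *Rela* had PU.1 called within 200 bp before induction, and those of *Nfkbia* and *Tnfaip3* had it from 3 hpi on. Those of *Relb*, *Nfkb1*, *Nfkb2* and *Nfkbiz* had no PU.1 call within 200 bp at any time point. The nearest PU.1 call of 0 hpi lay 459 bp from the *Nfkb1* site and 6635 bp from the *Nfkb2* site. A PU.1 site of *Nfkbiz* lay at +17.4 kb, near its C/EBPα site at +17.8 kb.

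In the 120 bases around the sites, the C/EBP letters TTGCNNAA stood in 9 of the 50 C/EBPα sites (18%, beside 27.1% of all C/EBPα sites) and in 12 of the 26 C/EBPβ sites (46.2%, beside 36% of all). The PU.1 core GAGGAA stood in 27 of the 64 PU.1 sites (42.2%, beside 45.1%) and in 8 of the C/EBPα sites (16%, beside 18.7%). Its longer form GAGGAAGT, which contains the core, stood in 11 PU.1 sites (17.2%, beside 20.2%) and 2 C/EBPα sites (4%, beside 3.8%). The NF-κB letters GGGANNNNCC stood in 3 C/EBPα sites (6%, beside 5.75%), which were the +0.7 kb site of *Nfkbia* and the *Rela* sites at +11.4 kb and 5.1 kb upstream, in 1 C/EBPβ site (3.85%, beside 5%) and in 8 PU.1 sites (12.5%, beside 6.87%). The PU.1 sites of *Rela* at +11.5 kb and 5.2 kb upstream held the same matches as the C/EBPα sites beside them. AP-1 letters stood in 3 C/EBPα sites (6%, beside 5.69%), 3 C/EBPβ sites (11.5%, beside 9.62%) and 1 PU.1 site (1.56%, beside 6.58%). No C/EBP match was found in the 64 PU.1 windows (5.94% of all PU.1 sites).

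Of 30 other genes of the pathway, 29 had a C/EBPα site in the same kind of locus (61.8% of all loci), 25 a C/EBPβ site (44%) and 30 a PU.1 site (77.8%). C/EBPα was called at 48 hpi at 18 of the 30 (31.1% of all loci) and PU.1 at 0 hpi at 27 (62.4%). A C/EBPα call at 48 hpi was found at 5 of 8 genes of the kinase complexes (*Chuk*, *Ikbkb*, *Ikbkg*, *Map3k14*, *Map3k7* and the TAB subunits) and at 4 of 7 genes of further inhibitors and IκB proteins. The highest C/EBPα reads at 48 hpi were those of *Irak2*, a kinase downstream of Toll-like and IL-1 receptors, with 106 (84.2 to 131) at +39.2 kb against 1.13 at 0 hpi. Next came *Ikbkg*, the regulatory subunit of IκB kinase, with 103 (82 to 128) at +58.5 kb and no read at 0 hpi, and *Nfkbid*, another nuclear IκB protein, with 70.4 (53.2 to 91.4) at 1.3 kb upstream against 5.64. The intervals of all 3 overlapped with that of the leading *Tnfaip3* site.

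The summed site reads of each locus were also compared with those of 17938 protein-coding loci over the 18 libraries, as Pearson's r of log2 values after subtracting the median of each library. The libraries are 3 factors at shared time points and not independent samples, so r is a description. The likest loci were those of *Bcl10* (0.96) for *Rela*, *Fam23a* (0.90) for *Rel*, *4931406P16Rik* (0.86) for *Relb*, *Psma3* (0.95) for *Nfkb1*, *B4galt3* (0.98) for *Nfkb2*, *Emilin2* (0.98) for *Nfkbia*, *Ccdc164* (0.98) for *Nfkbiz* and *3110082I17Rik* (0.97) for *Tnfaip3*. *Bmf* (0.96) and *Tnf* (0.95) came next for *Rela*, and *Stat3* (0.97) for *Nfkbiz*.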

How the data were processed

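The authors made ChIP-seq libraries from C10 cells with antibodies to 3 factors, 1 for each factor and time point. Per the submitters' processing notes and the study's methods, reads were mapped to mm9 by ELAND or Bowtie allowing no mismatch, non-unique and identical reads were removed, and HOMER was used for enriched regions. Which aligner served which library is not given in the sources used here. The authors deposited 1 line per mapped read (chromosome, start, end and strand), with no score, count or other measured column and no normalization.

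From these, 1 read per position and strand was kept (2.51% of the C/EBPα reads of 3 hpi were repeats, at most 0.187% elsewhere), each 5′ end was moved 75 bp inward, and windows of 200 bp were called at a Poisson p of at most 1e-07 genome-wide, an at least 4-fold excess over 10 kb around the window, and a Poisson p against that local density no higher than 0.0001. Calls of a factor within 200 bp were merged. Reads within 100 bp of a site were scaled to 10000000 reads. Libraries held 2901164 to 24909437 reads, and intervals cover counting error only. With no replicates no test was made. The likeness of loci used a pseudocount of 1 on the log2 scale. Scripts ran under Python 3.11.15 with numpy 2.4.6, scipy 1.17.1, pandas 2.3.3 and numba 0.67.0 and were tested on simulated data.

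The genes, their loci and all lists were chosen with earlier results of these data known. At each gene the leading C/EBPα site, the leading PU.1 site and the site nearest to a transcript start were named by rule, as were the 3 pathway genes with the highest C/EBPα reads at 48 hpi. The leading C/EBPβ sites and all other single sites were named after their values were seen. Alternatives covered repeats, read shift, window, threshold, local excess, depth, locus size, read window, scaling and sharing distance.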

Additional observations from a re-analysis of the deposited data

How the results depend on the processing

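No paired analysis was possible because each factor had a single library at each time point. Of the site counts, shares and summed ratios recomputed under alternative settings, 61 values stayed within their error or within 1.5 times the count, 6 did not, and none changed direction. The ratios were those of 48 to 0 hpi. Read values between these times and the times of the highest reads were not recomputed. Of the single sites, the C/EBPα ratio of 48 to 0 hpi at *Relb* (-0.84, on 3 reads) was 0.16 with reads within 200 bp and 0.00 when thinned, where those of *Rel* and *Nfkb1* were 0.00 as well, and the PU.1 ratio at *Tnfaip3* had an interval below 0 with reads within 200 bp (-0.42, -0.75 to -0.09). With the read shift set by the fragment length, the PU.1 ratio at the leading *Nfkbia* site could not be computed, as a ratio needs reads at both time points. A read threshold 1.5 times higher left 29 C/EBPα sites and 17 C/EBPβ sites, and 8 C/EBPα sites called at 48 hpi. Loci of the gene span plus 5 kb held 32 C/EBPα and 42 PU.1 sites. With PU.1 counted within 1 kb instead of 200 bp, 46% of the C/EBPα sites had a PU.1 call at 0 hpi, against 24% (31.9% and 19.9% of all C/EBPα sites). With the libraries of each factor thinned to its smallest, 34 C/EBPα, 20 C/EBPβ and 58 PU.1 sites were left, the summed PU.1 log2 ratio of 48 to 0 hpi was -0.15 with an interval that excluded 0 (-0.28 to -0.02), and the ratio at the leading *Tnfaip3* C/EBPα site was 5.58 in place of 3.72. Without the libraries of 10, 30 and 60 min, a choice made after seeing the data, 41 C/EBPα sites were called and the summed log2 ratio was 1.25. Sites with few reads at 0 hpi have wide ratio intervals, and the C/EBPβ libraries, the shallowest, call the fewest weak sites.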
